A study of Mus musculus with 9 samples.

Results

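The 5 microRNA (miRNA) probes of the miR-30 family, mmu-miR-30a, mmu-miR-30b, mmu-miR-30c, mmu-miR-30d and mmu-miR-30e, were taken by name from a panel of 566 mouse miRNA probes. No probe for a star arm of a miR-30 hairpin was found on the panel (0 probes), so all values are for the arm that carries the family's name. The samples were whole lungs of C57BL/6 mouse embryos at E18.5, shortly before birth, labelled as 4 homozygous mutants (Bim3'UTRmut/mut, an allele with an altered 3′ untranslated region of Bim; numbered 6 to 9) and 5 wild types (numbered 1 to 5). Each was read from 100 ng of total RNA on the NanoString nCounter, which counts single reporter-tagged molecules without amplification. No treatment is given in the labels, and Bim mRNA, which encodes a pro-apoptotic protein, is not among the 4 housekeeping mRNAs of the panel, so the genotype could not be checked in the counts. The comment entry of the lane table reads as mutant for sample 5. The sample labels were followed, and the other reading was run as an alternative.

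A mature miRNA guides an Argonaute protein to target mRNAs, mainly through the seed, bases 2 to 8 counted from the 5′ end. The miR-30 family is one of the widely expressed mammalian seed families, known from heart, kidney and epithelia. Reported targets of its members include Snai1, a transcription factor of epithelial to mesenchymal transition, the autophagy gene Becn1 and, in cardiac cells, the matrix-linked growth factor gene Ccn2. The mouse family is encoded by hairpins that lie in pairs: miR-30b with miR-30d, miR-30c-1 with miR-30e, and miR-30c-2 with miR-30a.

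The mature sequences show what the probes have in common and where they must tell members apart. RefSeq entries on GRCm38.p6 were matched for 3 of the 5 members, miR-30a, miR-30c and miR-30e, and for miR-384-5p, another mouse miRNA with this seed. They are shown 5′ to 3′ with the seed in capitals.
mmu-miR-30a-5p: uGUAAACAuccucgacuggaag
mmu-miR-30c-5p: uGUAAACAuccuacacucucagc
mmu-miR-30e-5p: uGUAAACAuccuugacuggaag
mmu-miR-384-5p: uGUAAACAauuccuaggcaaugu
All 4 share the seed GUAAACA, and among 1679 mature miRNA names in the reference table these 4 were the ones that carry it. miR-30b and miR-30d were not matched there, so this search could not cover them and says nothing about their seed. Counted from the 5′ end, miR-30a and miR-30e were identical at 21 of 22 positions and differed by C13U. miR-30a and miR-30c were identical at 17 of 22 compared positions (C13A, G14C, G18C, G19U and A20C), and none of the 3 family sequences differed before position 13. miR-384-5p departed from miR-30a at position 9 already. How well the probes separate miR-30a from miR-30e is not given in the sources used here.

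On GRCm38.p6, mature miR-30a lies on the plus strand at chr1:23272274-23272295 and 1 copy of miR-30c, from hairpin Mir30c-2, at chr1:23291714-23291736 on the same strand, with 19361 bases between the hairpins. The other copy of miR-30c, from Mir30c-1, lies on the minus strand at chr4:120769584-120769606 and miR-30e at chr4:120772660-120772681, with 2983 bases between their hairpins. Both chromosome 4 hairpins fall within the span of the protein-coding gene Nfyc, a subunit of the NF-Y transcription factor, and a further annotated hairpin, Mir30f, spans the mature miR-30e bases. No gene of the table spans mature miR-30a or the chromosome 1 copy of miR-30c. The miR-30c probe reads the same mature sequence from both hairpins, so its counts cannot be split between them.

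Per sample, 206964 to 289227 counts fell on mouse miRNA probes. Each lane's 8 negative controls set a threshold, their mean plus 2 SD, and the 189 of 566 probes that exceeded it in at least 4 samples were kept for testing. miR-30a, miR-30b, miR-30c and miR-30d exceeded this threshold in all 9 samples and miR-30e in 8, so all 5 members were kept. miR-384-5p exceeded it in 0 samples, at 8 to 24 counts. Samples 8 (mutant) and 3 (wild type) stand apart from the other 7, because the cardiac miRNA miR-208a exceeds 500 counts in both. Over the 7 heart and skeletal muscle markers the summed counts were 30047 in mutant 8 and 22869 in wild type 3, against 378 to 636 in the other 7 samples. In wild type 3, miR-133b (75 counts) and miR-206 (71 counts) lay inside the range of the other 7 (46 to 93 and 62 to 116). In mutant 8 they lay above it, at 110 and 187 counts. Over the 5 lung epithelial markers of the miR-200 family the summed counts were 1033 in mutant 8 and 548 in wild type 3, against 6490 to 8695. No marker of either list was at 0 in all samples. Over the 2 endothelial markers they were 18039 in mutant 8 and 19638 in wild type 3, against 26174 to 35493, and for the liver marker miR-122 they were 812 in both, against 43 to 232. Over the 5 smooth muscle and mesenchyme markers they were 14177 in mutant 8 and 11912 in wild type 3, against 16958 to 23767. Over the 4 blood markers they were 2964 in mutant 8 and 1614 in wild type 3, against 1660 to 3540. Within this list miR-142-3p was 1082 in mutant 8 and 115 in wild type 3, against 98 to 251 in the other 7. miR-223 was 186 in mutant 8 and 187 in wild type 3, against 327 to 597. The genotypes overlapped on each of the 6 lists. Of the 7 muscle markers 3 were kept for testing (miR-1, miR-133a and miR-206), as were all markers of the other lists, and 0 of those kept had an adjusted p under 0.05 in edgeR. The genotype values of the 5 members and their ratios are also given without samples 3 and 8.

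miR-30c made up most of the family signal in every sample. Together the 5 probes held 2.08%, 1.72%, 2.26% and 1.34% of the kept counts in mutants 6, 7, 8 and 9, against 1.93%, 2.21%, 2.58%, 1.67% and 2.16% in wild types 1 to 5. The highest share was in wild type 3 and the lowest in mutant 9, and the groups overlapped. The means were 1.85% ± 0.406 in the mutant (SD, n = 4) and 2.11% ± 0.340 in the wild type (n = 5), a difference of -0.261 percentage points that was smaller than the pooled SD of 0.370. For scale, the endothelial miR-126-3p held 10.9% ± 2.16 in the mutant and 11.99% ± 1.11 in the wild type. In whole tissue, a difference in the number of cells of a type and one in RNA per cell cannot be told apart.

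Within the family, miR-30c held 66.7%, 68.0%, 62.9% and 69.4% of the counts in mutants 6 to 9, against 66.8%, 72.8%, 75.5%, 74.2% and 69.4% in wild types 1 to 5. Wild type 1 lay below mutants 7 and 9, and the other 4 wild types lay above all mutants, wild type 5 only just. miR-30d held 14.02% ± 1.89 in the mutant and 12.5% ± 1.47 in the wild type. miR-30a held 10.5% ± 0.872 in the mutant and 9.03% ± 1.82 in the wild type, and miR-30b 6.09% ± 1.04 in the mutant and 4.34% ± 0.748 in the wild type. miR-30e held 2.66% ± 0.652 in the mutant and 2.38% ± 0.821 in the wild type. The order miR-30c, miR-30d, miR-30a, miR-30b, miR-30e was the same in 9 of 9 samples and in 12 of 12 lanes, counting the second lanes in which samples 1, 5 and 6 were run again. The closest neighbours were miR-30d and miR-30a, whose count ratio ran from 1.14 to 1.61. Because the capture efficiency of each probe is not given in the sources used here, this is an order of counts and not of molecules.

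**Figure D1:**
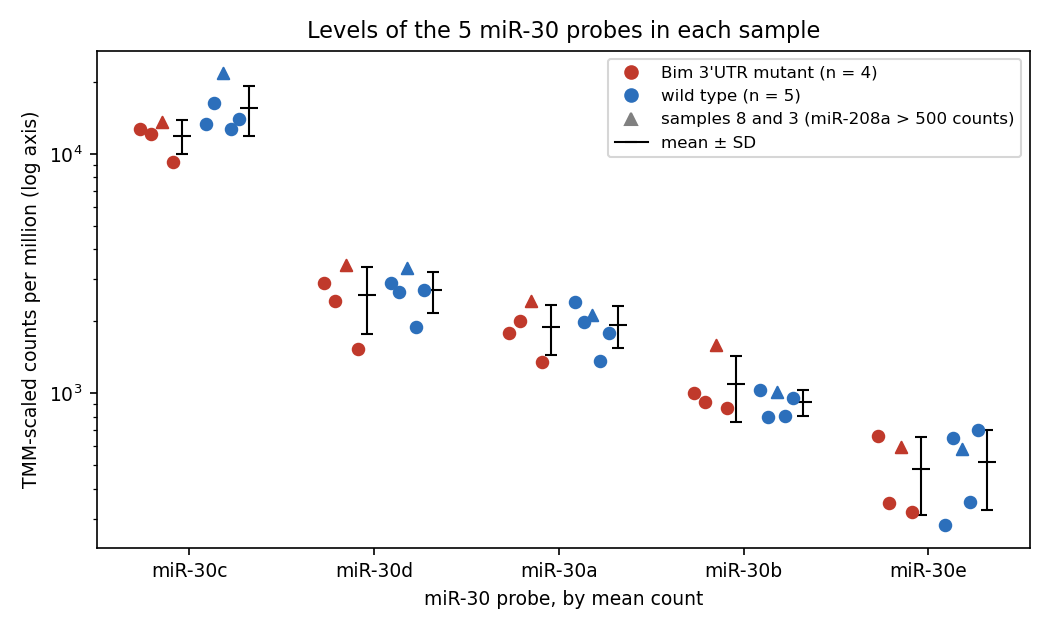
TMM-scaled CPM (log axis) of the 5 miR-30 probes in each sample, with the 4 mutants left of the 5 wild types of each probe; triangles are samples 8 and 3, and bars are the mean ± SD. miR-30c lies above all other members in every sample, and the genotypes overlap for each probe.

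By genotype, no miR-30 probe passed the test. Levels below are CPM, each probe's share of a library of kept counts, after TMM scaling over the 189 kept probes, and fold changes with their SE, 95% interval and p come from edgeR's quasi-likelihood test over the same probes, with Benjamini-Hochberg adjustment. In that test 0.0% of the 189 probes passed an adjusted p of 0.05, while 1.06% were lower and 1.59% higher in the mutant at an unadjusted p of 0.05. None of the 5 members was among these, and the adjusted p was 0.997 for each of them. Whether the lungs came from separate litters is not in the labels, and the p-values reflect no more than how these 9 libraries scatter.

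miR-30c, the family's leading member here, read 12692, 12125, 13602 and 9225 CPM in mutants 6, 7, 8 and 9, against 13272, 16267, 21702, 12682 and 13954 CPM in wild types 1 to 5. Mutants 7 and 9 lay below every wild type, mutants 6 and 8 lay among the lower wild types, and wild type 3 was highest. Its log2 fold change of -0.39 ± 0.20 (SE, 4 against 5) had the largest size of the 5 members, with a 95% interval from -0.83 to 0.06 and an unadjusted p of 0.0797 in edgeR's quasi-likelihood test. It ranked 10 of 189 by p. The value was below 0 in all 25 alternatives, from -0.46 to -0.20, with unadjusted p from 0.0612 to 0.401 (edgeR, DESeq2 or limma). It was -0.24 without wild type 3, -0.31 without samples 3 and 8, and -0.20 with housekeeping scaling, which moved the median of all probes from -0.03 to 0.11.

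miR-30b was the 1 member with a positive value. It read 1008, 923, 1595 and 865 CPM in mutants 6 to 9, against 1029, 797, 1017, 804 and 953 CPM in wild types 1 to 5. Mutant 8 alone lay above the wild types, and the other 3 mutants lay within their range. The log2 fold change was 0.25 ± 0.20 (95% interval -0.20 to 0.71), 0.02 without mutant 8 and 0.06 without samples 3 and 8.

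miR-30d, encoded next to miR-30b, read 2879, 2429, 3422 and 1534 CPM in mutants 6 to 9, against 2898, 2661, 3334, 1885 and 2710 CPM in wild types 1 to 5. The mutants held both the highest and the lowest value. The log2 fold change was -0.07 ± 0.25 (95% interval -0.64 to 0.50) and -0.15 ± 0.22 without samples 3 and 8.

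miR-30a read 1792, 2001, 2419 and 1351 CPM in mutants 6 to 9, against 2401, 1985, 2119, 1364 and 1778 CPM in wild types 1 to 5, again with the wild types inside the mutants' range. The log2 fold change was -0.03 ± 0.22 (95% interval -0.52 to 0.46) and -0.13 ± 0.20 without samples 3 and 8. miR-30e, the dimmest member, gave -0.09 ± 0.33 (95% interval -0.83 to 0.65) and -0.16 ± 0.36 without samples 3 and 8. Read together, 4 of the 5 members had a value below 0, against 59.8% of all 189 probes, and the median was -0.07 for the members and -0.03 for all probes. With housekeeping scaling 1 of 5 members and 28.6% of all probes were below 0, and the medians were 0.08 for the members and 0.11 for all probes, so the signs of miR-30a, miR-30d and miR-30e turn with that scaling. The log2 CPM of mutants and wild types did not overlap for 0 of the 5 members, against 0.529% of all probes.

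**Figure D2:**
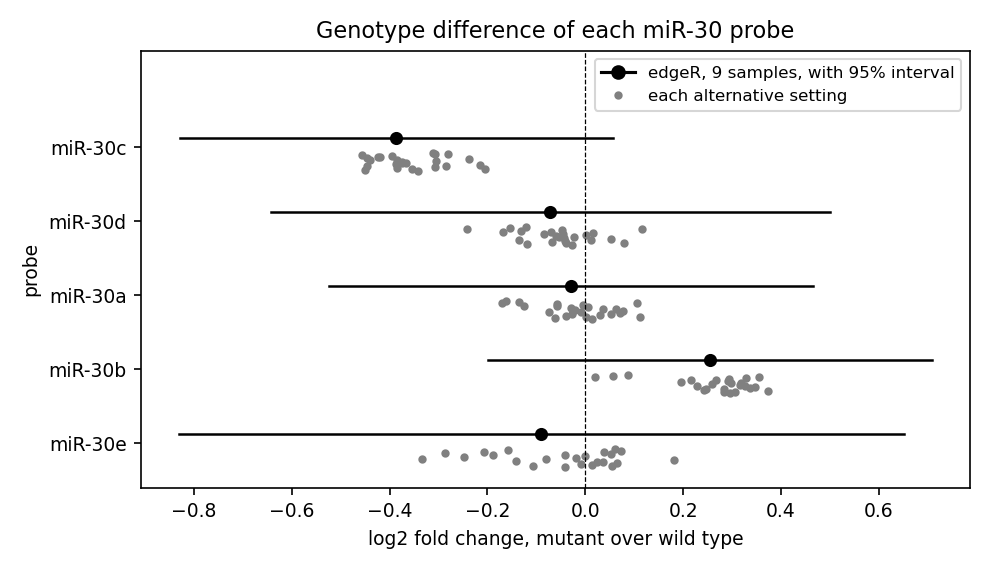
Log2 fold change (mutant over wild type) of each miR-30 probe: black points and lines are edgeR's value over 9 samples with its 95% interval, and grey points are the alternative settings. All intervals include 0; the grey points of miR-30c lie from -0.46 to -0.20 and those of miR-30b from 0.02 to 0.37.

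Ratios of 2 members within a sample do not depend on the scaling, but lane background was left in the counts. All 10 pairs were compared between genotypes with exact two-sided permutation tests. These double the smaller tail, so their smallest possible p over the 126 splits is 0.0159. The pair that differed most was miR-30c over miR-30b. The ratio of counts was 12.6, 13.1, 8.53 and 10.7 in mutants 6, 7, 8 and 9, against 12.9, 20.4, 21.3, 15.8 and 14.6 in wild types 1 to 5. Wild type 1 lay below mutant 7, and the other wild types lay above every mutant. The geometric means were 11.1 in the mutant and 16.7 in the wild type, a log2 difference of -0.59 ± 0.20 (SE, 4 against 5) with an exact permutation p of 0.0317. After Benjamini-Hochberg adjustment over the 10 pairs this was 0.286, so 0 pairs passed at 0.05 (1 at an unadjusted p of 0.05). A single pair at the smallest possible p could not have passed this adjustment alone.

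The 2 samples with muscle markers sat at opposite ends of this ratio, mutant 8 at its lowest value of 8.53 and wild type 3 at its highest of 21.3. Without them the log2 difference was -0.38 ± 0.17 (SE, 3 against 4), with an exact permutation p of 0.114 and an adjusted p of 0.8. With 3 against 4 samples this test cannot give a p under 0.05, so its p decides nothing here. The second lanes of samples 6, 1 and 5 gave ratios of 8.82, 11.3 and 11.96, each below the first lane of the same RNA (12.6, 12.9 and 14.6). With the second lanes in place of the first, the log2 difference was -0.62 with an exact permutation p of 0.0635. With sample 5 counted as mutant it was -0.56 (exact permutation p = 0.0476). Over 13 alternatives it ran from -0.69 to -0.38, with exact permutation p from 0.0286 to 0.114, under 0.05 in 4 of them, and adjusted p from 0.143 to 0.8.

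The lanes also fell into classes by background. In the first lanes of samples 2, 5 and 6 the negative controls averaged 64.3 to 79.1 counts, and in those of the other 6 samples 28.1 to 39.5. The lower-background lanes include those of mutant 8 and wild type 3. Among them the log2 difference of miR-30c over miR-30b was -0.62 (3 mutants against 3 wild types). Among the higher-background lanes it was -0.46, with 1 mutant against 2 wild types and no test. In those lanes miR-30b was near the threshold, at 1.36 to 1.69 times it, against 2.41 to 5.79 times in the lower-background lanes. With the mean negative control count subtracted, the log2 difference over all 9 samples was -0.69 (exact permutation p = 0.0476, adjusted 0.317).

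No other pair passed an unadjusted p of 0.05 over the 9 samples. miR-30c over miR-30a had geometric means of 6.37 in the mutant and 8.05 in the wild type, a log2 difference of -0.34 ± 0.17 (exact permutation p = 0.111, adjusted 0.286). miR-30c over miR-30d had 4.79 in the mutant and 5.75 in the wild type, a log2 difference of -0.26 ± 0.17 (exact permutation p = 0.143, adjusted 0.286). miR-30d over miR-30b, which are encoded together, had 2.31 in the mutant and 2.90 in the wild type, a log2 difference of -0.33 ± 0.18 (exact permutation p = 0.111, adjusted 0.286). miR-30a over miR-30b differed by -0.25 ± 0.15 on the log2 scale (exact permutation p = 0.143, adjusted 0.286). miR-30d over miR-30a was 1.33 in the mutant and 1.40 in the wild type (log2 difference -0.07 ± 0.13, exact permutation p = 0.587). Without samples 3 and 8, the log2 difference was -0.19 for miR-30c over miR-30a (exact permutation p = 0.343) and -0.13 for miR-30c over miR-30d (exact permutation p = 0.4). It was then -0.25 for miR-30d over miR-30b, -0.19 for miR-30a over miR-30b and -0.06 for miR-30d over miR-30a. Without mutant 8 alone, miR-30c over miR-30d was -0.18.

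The 4 pairs with miR-30e had log2 differences from -0.30 to 0.29 and exact permutation p from 0.349 to 0.952, and from -0.18 to 0.19 without samples 3 and 8. They moved with the lane chosen. With second lanes, miR-30b over miR-30e differed by 0.62 on the log2 scale (exact permutation p = 0.0159, adjusted 0.159). That p is the smallest this test can give with all 9 samples, and alternatives with fewer samples cannot go as low. With first lanes the difference of miR-30b over miR-30e was 0.29 (exact permutation p = 0.444), and with sample 5 as mutant it was 0.02. With 1 sample left out it was 0.14 to 0.53, the lowest without wild type 2 and the highest without wild type 1. miR-30c over miR-30e was -0.30 with first lanes and -0.0034 with second lanes. The 10 pairs share members, so they are not independent of each other.

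**Figure D3:**
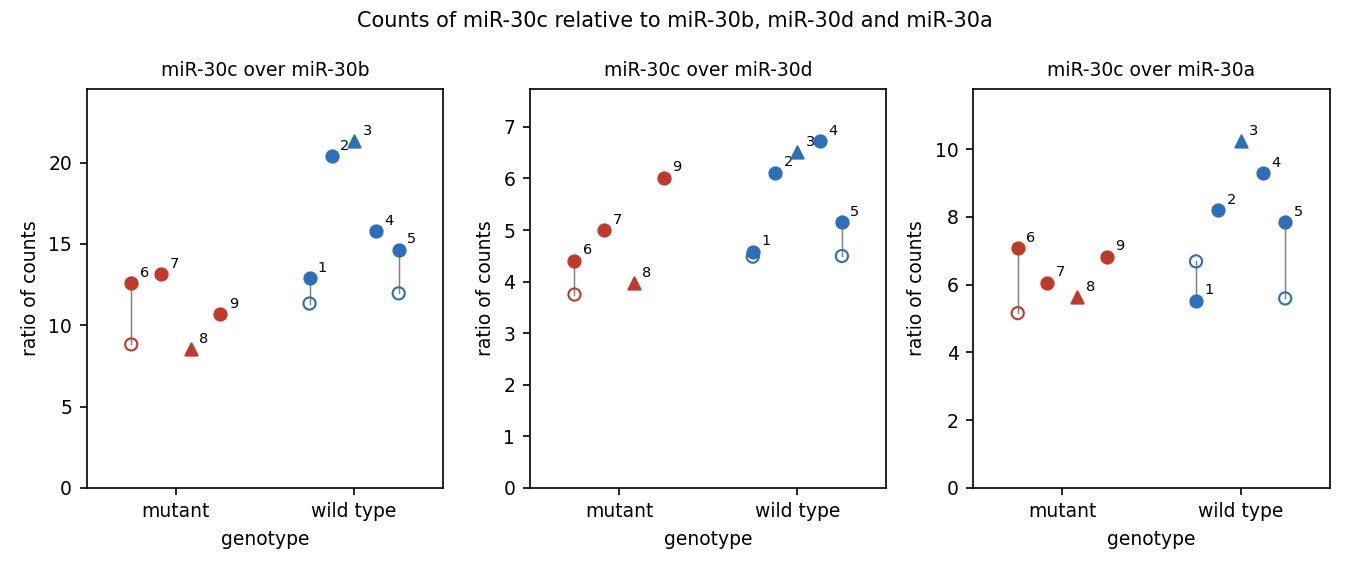
Ratio of miR-30c counts to those of miR-30b, miR-30d and miR-30a in each numbered sample, mutants left of wild types; triangles are samples 8 and 3, and open circles joined by a line are the second lanes of samples 6, 1 and 5. For miR-30b, 4 of 5 wild types lie above all 4 mutants, and the lines show that repeat lanes of 1 RNA can differ by as much as neighbouring samples.

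miR-30e moved with the background of its lane. It gave 170, 88, 141 and 72 counts in mutants 6, 7, 8 and 9, against 73, 166, 98, 72 and 199 counts in wild types 1 to 5. Its count was between 0.894 and 2.17 times the lane threshold, and mutant 9 was the sample below it. In the 4 lanes whose negative controls averaged 64.3 to 79.1 counts, miR-30e gave 166 to 199 counts, against 72 to 141 in the 8 other lanes, whose controls averaged 28.1 to 44.9. Of all kept probes 11.6% were higher in these 4 lanes than in every other lane, and of the miR-30 members miR-30e alone was.

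The repeat lanes show this within 1 RNA. Sample 1 gave 73 miR-30e counts in its first lane and 168 in its second, where the mean negative control count was 28.1 and 67.1. Sample 5 gave 199 and then 128 counts (background 79.1 and 44.9), and sample 6 gave 170 and then 94 (background 66.8 and 29.4). On the log2 CPM scale, the second lane of miR-30e differed from the first by 1.06, -0.71 and -0.74 in samples 1, 5 and 6. Across the 7 samples other than 3 and 8, which fall into these background classes, Pearson's r of its log2 CPM with the log2 mean negative control count was 0.97, a description with no test. With that background as a covariate its genotype value was 0.01 ± 0.23 in edgeR.

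**Figure D4:**
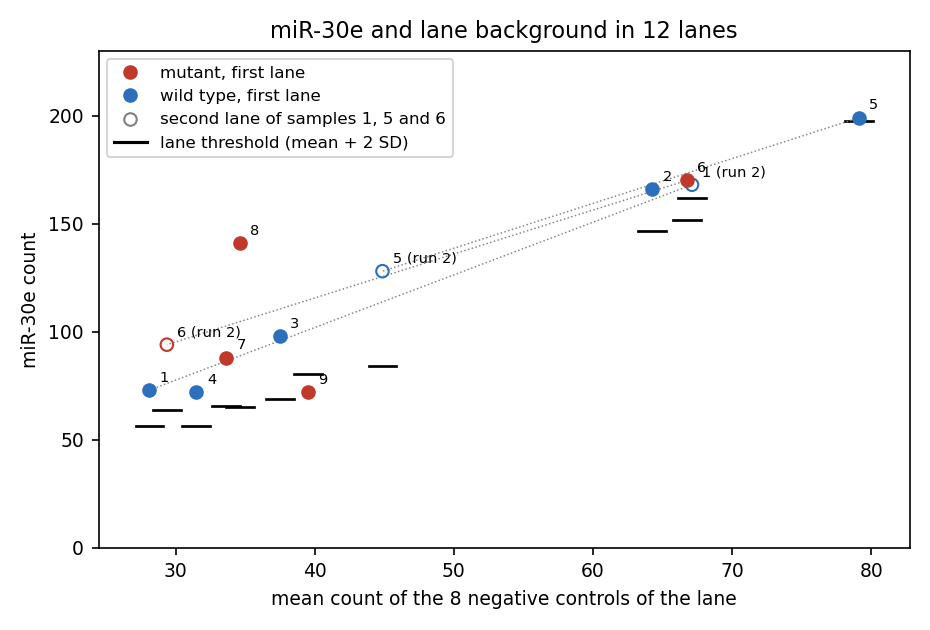
Count of miR-30e against the mean count of the 8 negative controls in each of the 12 lanes, with short black lines at each lane's threshold and dotted lines joining the first and second lanes of samples 1, 5 and 6. The 4 lanes at a background of 64.3 to 79.1 lie at 166 to 199 counts, and all other lanes at 72 to 141.

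The other members differed in how well the repeat lanes agreed. The technical SD of log2 CPM over the 3 repeated samples was 0.07 for miR-30c, 0.11 for miR-30d, 0.21 for miR-30b, 0.30 for miR-30a and 0.60 for miR-30e, against a median of 0.17 over the 189 kept probes. The SD across the 9 samples was 0.33 for miR-30c, 0.38 for miR-30d, 0.30 for miR-30b, 0.31 for miR-30a and 0.52 for miR-30e, with a median of 0.32 over all probes. For miR-30c and miR-30d the samples therefore spread more widely than repeats of 1 RNA, also without samples 3 and 8 (0.25 and 0.35). The SD of miR-30b was 0.15 without samples 3 and 8, below its technical SD of 0.21. For miR-30a the spreads had almost the same size, and for miR-30e the repeats spread more than the samples. In all 3 repeated samples the lanes fell into different background classes, so the technical SD holds that difference as well.

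In the samples with muscle markers, miR-30c and miR-30b took different positions. miR-30c was 13602 CPM in mutant 8, inside the range of the other 7 samples (9225 to 16267 CPM), and 21702 CPM in wild type 3, above it. miR-30b was 1595 CPM in mutant 8, above the range of the other 7 (797 to 1029 CPM), and 1017 CPM in wild type 3, inside it. miR-30d lay above the other 7 samples (1534 to 2898 CPM) in both, at 3422 CPM in mutant 8 and 3334 CPM in wild type 3. For wild type 3 this depended on the TMM scaling. As a share of kept counts, miR-30d was 0.299% in wild type 3, inside the 0.155% to 0.314% of the other 7. In mutant 8 the share was 0.357%, above that range.

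miR-30a was 2419 CPM in mutant 8, just above the 1351 to 2401 CPM of the other 7, and 2119 CPM in wild type 3. miR-30e was inside the range of the other 7 in both, at 596 CPM in mutant 8 and 587 CPM in wild type 3. No member lay below the range of the other 7 in either sample. Thus, in TMM-scaled CPM, 1 of 5 members, miR-30d, lay outside the other 7 on the same side in both samples, against 38.6% of all kept probes. As a share of kept counts, miR-30d did so in mutant 8 but not in wild type 3. The split rests on a probe outside the family that was read from these data, so it has no test, and the part of other tissue in these values was not tested.

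**Figure D5:**
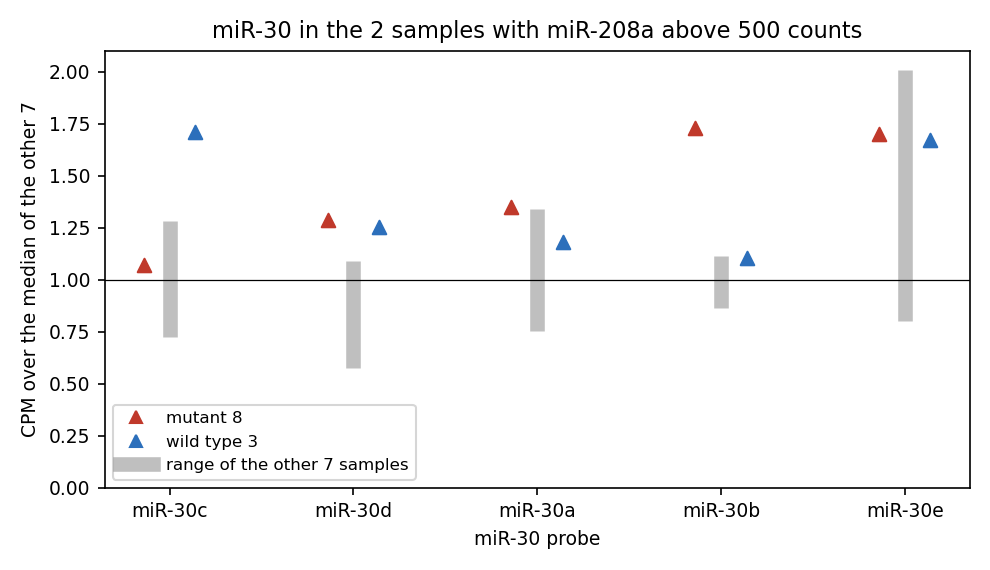
CPM of each miR-30 probe in mutant 8 and wild type 3, divided by the median of the other 7 samples, with grey bars for the range of those 7. miR-30c is 1.07 times the median in mutant 8 and 1.71 times in wild type 3, and miR-30b is 1.73 times in mutant 8 and 1.10 times in wild type 3.

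Over the 7 samples without these, the members did not all vary alike. miR-30a and miR-30d had a Pearson's r of 0.85 in log2 CPM and miR-30c and miR-30d of 0.76, although neither pair shares a hairpin cluster. The encoded neighbours miR-30b and miR-30d had 0.58, miR-30c and miR-30e 0.57, and miR-30a and miR-30c 0.57. miR-30b and miR-30c had -0.07. Over all 17766 pairs of kept probes the quartiles were -0.41 and 0.41, and the samples share their scaling and lane background, so these are descriptions of 7 samples with no test.

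Outside the family, the probes most like miR-30c by Pearson's r over these 7 samples were miR-181a (0.96), miR-150 (0.95), a lymphocyte miRNA, and miR-22 (0.90). For miR-30d they were the erythroid miR-451 (0.95), miR-29a (0.93) and miR-23a (0.90), and for miR-30a miR-146a (0.95), miR-23b (0.93) and miR-434-3p (0.92). For miR-30b they were miR-103 (0.91), miR-365 (0.86) and the epithelial miR-141 (0.80). For miR-30e they were miR-1960 (0.99), the combined probe of miR-181b and miR-181d (0.98) and miR-193b (0.97), in samples that differ in lane background as described. These are the 3 highest values for each member, so they are high in part because they were selected, and no p is given.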

How the data were processed

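The authors deposited raw counts for each probe and sample, and any step applied to them is not given in the sources used here. Per the file headers a lane table holds 12 lanes, whose first lane per sample matched the sample counts in 5634 of 5634 values. First lanes gave all main values, and a second lane of 1 RNA was never an added replicate. For genotype, edgeR 4.0.16 was run (R 4.3.3, TMM factors, glmQLFit, glmQLFTest, no covariate) over the 189 kept mouse probes. The SE is the log2 fold change divided by the square root of F. Log2 CPM used a prior count of 2. Alternatives were DESeq2 1.42.0, limma 3.58.1 on log2 of the count plus 1, 4 other scalings, other filters, background subtraction, lane background as covariate, second lanes, sample 5 as mutant, and left-out samples. Use of lower-background lanes alone, and of the quieter lane of each sample, was added after seeing the files. The edgeR fit was also tested on simulated data. Those data had a dispersion common to all probes and no lane background classes or samples rich in muscle markers, unlike the real counts. Named were the members, seed relatives, markers and, per member, the 3 most similar probes, with miR-126-3p for scale. Members, lists and tests were chosen with earlier results of these data known. Tables and figures used Python 3.11.15, scipy 1.17.1 and matplotlib 3.10.9.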

Additional observations from a re-analysis of the deposited data

Results flagged for a closer look

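By a gap test for single outliers within genotype, 1 value in 42 tested groups was marked, where chance marks about 1 in 20. It was the log2 ratio of miR-30b over miR-30e in mutant 6, at 0.60 (a ratio of 1.51), against ratios of 2.65, 2.67 and 2.69 in mutants 7, 8 and 9. Mutant 6 was the mutant run in a higher-background lane, and its second lane gave a ratio of 3.52. The part of lane background in this value was not tested further.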

How the results depend on the processing

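No probe passed an adjusted p of 0.05 in edgeR, DESeq2 or limma under any of the 25 alternatives (2 to 9 probes at an unadjusted p of 0.05), and 0 of 10 member ratios passed under any of 13. For the ratios this outcome says little. With 9 samples, 1 pair at the smallest possible exact permutation p of 0.0159 had an adjusted p of 0.159, so no pair could pass alone. With fewer samples the smallest possible p is higher. miR-30b kept a positive value and miR-30c a negative one throughout. Log2 fold changes that turned positive were, for miR-30a, 0.014 with DESeq2, 0.070 with positive control scaling, 0.11 with housekeeping scaling, 0.036 with total count scaling, 0.053 without a filter, 0.0015 with the filter in all samples, 0.031 with limma and 0.077 with second lanes. For miR-30d they were 0.052 with positive control scaling, 0.079 with housekeeping scaling, 0.0012 with total count scaling and 0.012 without a filter. For miR-30e they were 0.037 with positive control scaling, 0.055 with housekeeping scaling, 0.023 without a filter, 0.18 with sample 5 as mutant, 0.061 without samples 3, 5 and 8, 0.014 with lane background as covariate and 0.066 in lower-background lanes only. Leaving out 1 sample each gave -0.17 to 0.11 for miR-30a, -0.24 to 0.12 for miR-30d and -0.29 to 0.072 for miR-30e. It gave -0.16 to 0.0032 for miR-30d over miR-30a, -0.13 to 0.32 for miR-30a over miR-30e and -0.16 to 0.19 for miR-30d over miR-30e. miR-30a over miR-30e was -0.25 with sample 5 as mutant, and miR-30d over miR-30e was 0.27 with second lanes. The causes were not tested. With 1 sample left out, the family share difference was -0.397 to -0.0914 percentage points. miR-30e was not tested under the filter in all samples. No paired analysis was possible because the genotypes share no replicate numbers. miR-30e lies near background, which limits what its values can show.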
